A study of Danio rerio with 6 samples.

Results

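The interferon regulatory factor (IRF) family of the zebrafish was followed across control thymus and 2 kinds of tumors driven by human IRF4. Its members were chosen by name, as the gene rows that carry the symbol irf1b, irf2, irf3, irf4a, irf4b, irf5, irf7, irf8, irf9 or irf10. These 10 symbols stood on 11 of the 31901 gene rows. The extra row, ENSDARG00000110357.1, also carried the symbol irf1b, but the current name table gives that identifier to TXNDC15, a thioredoxin domain gene. It was therefore kept apart, and the counts of family genes below refer to 1 row for each of the 10 symbols.

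IRF proteins are transcription factors that share a DNA-binding domain recognizing GAAA-containing elements in the promoters of interferons and interferon-stimulated genes. IRF3 and IRF7 are phosphorylated downstream of sensors of viral nucleic acids and switch on type I interferon genes. IRF9 is part of a complex that carries the interferon signal to the nucleus, while IRF1 activates and IRF2 mostly restrains an overlapping set of genes. IRF4 and IRF8 act mainly in lymphoid and myeloid cells, where they guide differentiation. Fish kept a pair of IRF4 genes, irf4a and irf4b, and they also carry irf10, which humans lack.

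RNA was sequenced from 3 groups of 2 libraries each. The lck-mCherry controls were normal thymus cells of fish carrying only the fluorescent marker mCherry. The lck-IRF4 group held tumor cells of fish that carried human IRF4 together with mCherry, both driven by the lck promoter of the zebrafish, which is active in T cells. The lck-IRF4;p53+/- group held tumor cells of fish with the same transgenes and 1 mutant copy of p53. Tumor cells had been sorted by mCherry fluorescence after lymphoma had developed, and the labels do not say whether the thymus cells were sorted or whether a library came from 1 fish or several. Per the study's methods, lck-IRF4 tumor cells for bulk sequencing came from fish months older than the control fish of its single-cell data. The age of the controls used here is not stated, so age, tissue of origin and transgene cannot be told apart. The labels do not tie replicates to separate fish, so p-values measure only the spread between these libraries. The human transgene was not measured here, so irf4a and irf4b below are the fish's own genes, and whether reads of human IRF4 were counted on either of them was not tested.

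Levels are given as counts per 1000000 (CPM), scaled between libraries by the trimmed mean of M-values (TMM). The counts behind them were whole reads per gene, solved from the authors' means of normalized counts. They summed to between 5402191 and 7195426 per library, so that 3 counts corresponded to between 0.374 and 0.534 CPM. Pearson correlations of log2 CPM across genes, which are not independent replicates, ranged from 0.885 to 0.917 within groups and from 0.780 to 0.865 between control and tumor libraries. Across genes no level is compared with another, because transcript lengths were not used. In sorted or dissected cells, fewer cells of a type and less RNA per cell cannot be told apart.

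The first comparison set the family in lck-IRF4 tumors against control thymus. Of the 10 family genes, 8 passed the filter on low counts and 2, irf3 and irf5, did not. By the test described below, irf1b alone of the 8 was called, and it was called lower in both tumor groups. Of the 8 tested genes, 7 had a fitted log2 fold change below 0 and 1 above 0, with a median of -0.96 against 0.03 for all 14073 genes tested. A gene was called where the p of edgeR's quasi-likelihood test, adjusted by the Benjamini-Hochberg method, was under 0.05. Of the 8 genes, 1 was called, against 0.938% of all genes tested. Libraries of the groups did not overlap for 7 of the 8 genes, 6 lower and 1 higher in the tumors, against 47.0% of all genes. That count used TMM scaling. By library totals irf2 overlapped, at 156 and 215 CPM in the controls and 140 and 170 CPM in the tumors. So did irf10, at 4.86 and 4.63 against 5.17 and 3.33 CPM.

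In lck-IRF4;p53+/- tumors, which were set against the same controls, 6 of the 8 genes had a log2 fold change below 0 and 2 above 0, with a median of -0.81 against 0.02 for all genes. Again 1 gene was called, against 2.44% of all genes tested. The groups did not overlap for 4 of the 8 genes, all lower in the tumors, which is close to the 49.9% of all genes. By library totals irf9 overlapped here, at 48.5 and 36.7 CPM in the controls and 40.0 and 28.6 CPM in the tumors. In 3 family genes, irf1b, irf2 and irf9, all 4 tumor libraries lay below both control libraries, against 14.0% of all genes. Scaled by library totals in place of TMM, this held for irf1b alone, while for irf8 all 4 tumor libraries lay above both controls. That scaling raised the median log2 fold change of all genes against the controls by 0.29 for lck-IRF4 tumors and by 0.27 for lck-IRF4;p53+/- tumors.

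**Figure D1:**
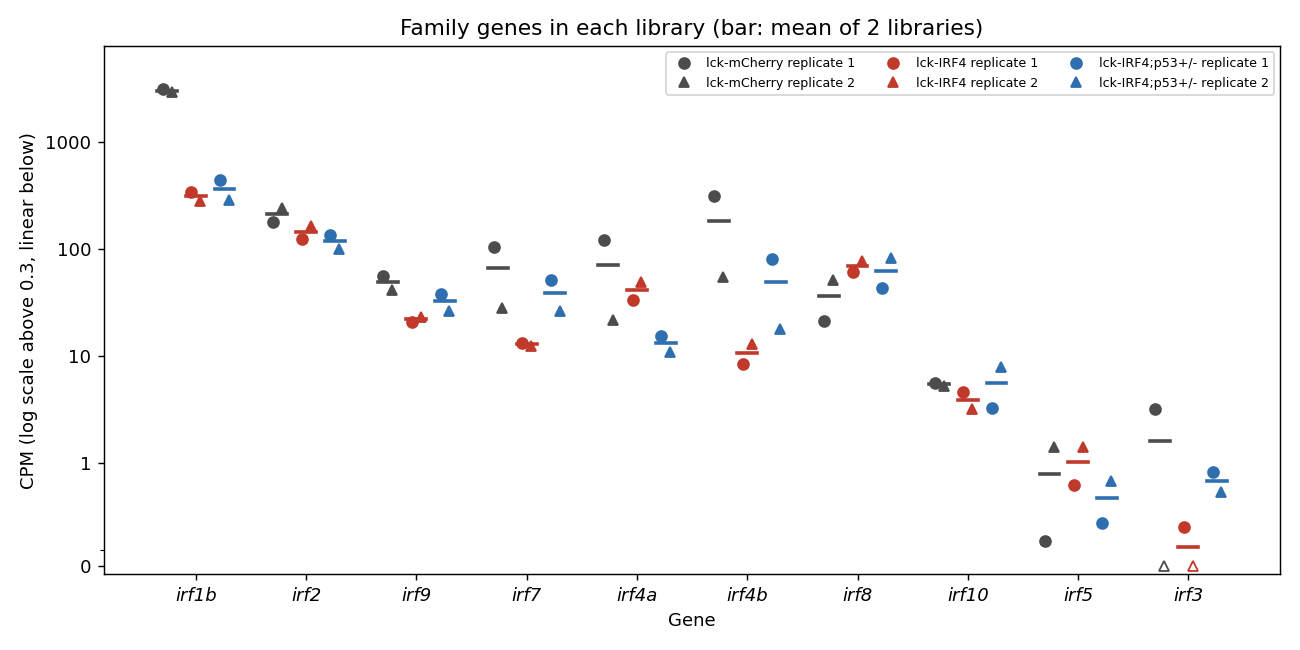
Level of each family gene in each of the 6 libraries, in CPM on an axis that is logarithmic above 0.3 and linear below. Circles are replicate 1, triangles replicate 2, bars the mean of both, and open symbols a count of 0. The control libraries of irf1b lay at 3144 and 2939 CPM and all 4 tumor libraries at or under 448 CPM, while the control libraries of irf4a, irf4b and irf7 lay far apart.

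irf1b (ENSDARG00000043249.7), a counterpart of the interferon-induced activator IRF1, had 3144 and 2939 CPM in the control libraries. In lck-IRF4 tumors it had 343 and 284 CPM, and in lck-IRF4;p53+/- tumors 448 and 287 CPM. All tumor libraries were far below both controls, the control libraries differed by 1.07-fold, and the tumor groups overlapped. The fall was 9.70-fold in lck-IRF4 tumors (log2 fold change -3.28, SE 0.39, n = 2 per group, edgeR adjusted p = 0.0276). It was 8.28-fold in lck-IRF4;p53+/- tumors (log2 fold change -3.05, SE 0.38, edgeR adjusted p = 0.0178). Between the tumor groups the log2 difference was 0.23 (SE 0.36), with an edgeR adjusted p of 1.00.

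Among the 33 genes called lower in lck-IRF4 tumors, 22 had a larger fall than irf1b. Among the 162 called lower in lck-IRF4;p53+/- tumors, 123 did. The change in irf1b kept its sign throughout, with log2 fold changes from -3.42 to -3.18 and from -3.40 to -2.77 over 11 other settings each. In lck-IRF4;p53+/- tumors it was -3.40 without their replicate 1 and -2.77 without their replicate 2. The call of irf1b also depended on single libraries. Against lck-IRF4 tumors, the edgeR adjusted p was 0.139 without lck-mCherry replicate 1, 0.145 without lck-mCherry replicate 2, 0.0726 without lck-IRF4 replicate 1 and 0.0612 without lck-IRF4 replicate 2. Against lck-IRF4;p53+/- tumors, it was 0.0829 and 0.0969 without the respective control library, and 0.0635 without lck-IRF4;p53+/- replicate 2. Without 1 or the other control library edgeR called 0 genes against either tumor group, although between 2390 and 2877 had an unadjusted p under 0.05. DESeq2, with both control libraries, gave irf1b adjusted p-values of 9.03e-12 and 1.69e-10. Over the 11 other settings they ranged from 9.03e-12 to 0.145 and from 1.69e-10 to 0.0969.

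The row with the same symbol that is now named TXNDC15 showed no such difference. It had 38.8 and 75.2 CPM in the controls, 53.9 and 61.7 CPM in lck-IRF4 tumors and 54.0 and 64.2 CPM in lck-IRF4;p53+/- tumors. Every tumor library lay between the control libraries, and the log2 fold changes were 0.02 (SE 0.44) and 0.05 (SE 0.44).

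irf2 (ENSDARG00000040465.7, irf2b in the current name table), a counterpart of the repressor IRF2, had 181 and 245 CPM in the controls. It had 125 and 164 CPM in lck-IRF4 tumors and 137 and 102 CPM in lck-IRF4;p53+/- tumors. The tumor libraries were lower, but the gap between the lower control and the highest tumor library was narrow. The log2 fold changes were -0.57 (SE 0.37) and -0.84 (SE 0.38), with edgeR adjusted p-values of 0.483 and 0.272. irf9 (ENSDARG00000016457.11), the subunit that binds DNA in the complex carrying the interferon signal, had 56.4 and 41.9 CPM in the controls. Its levels were 20.7 and 23.5 CPM in lck-IRF4 tumors and 38.4 and 26.7 CPM in lck-IRF4;p53+/- tumors. The lck-IRF4 libraries were the lowest, the controls the highest, and no groups overlapped. Neither log2 fold change, -1.15 (SE 0.45) and -0.60 (SE 0.44), passed the test, with edgeR adjusted p-values of 0.229 and 0.504.

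Of the fish's own IRF4 genes, irf4b (ENSDARG00000055374.9) had 315 and 54.4 CPM in the controls. It had 8.48 and 13.0 CPM in lck-IRF4 tumors, and 80.4 and 17.9 CPM in lck-IRF4;p53+/- tumors. Both lck-IRF4 libraries lay below every other library, whereas the lck-IRF4;p53+/- libraries overlapped the controls. The log2 fold change of -4.11 (SE 1.02) in lck-IRF4 tumors had an edgeR adjusted p of 0.101, and the one of -1.91 (SE 0.92) in lck-IRF4;p53+/- tumors an edgeR adjusted p of 0.301. For lck-IRF4 tumors the adjusted p was 0.049 in edgeR with only the 4 libraries compared, 0.0354 without lck-IRF4;p53+/- replicate 1, 0.0395 without lck-IRF4;p53+/- replicate 2 and 0.000225 in DESeq2. Over its 11 other settings the adjusted p ranged from 2.77e-07 to 0.341. Without lck-mCherry replicate 1 the log2 fold change was -2.36 in lck-IRF4 tumors and -0.15 in lck-IRF4;p53+/- tumors, and without lck-mCherry replicate 2 it was -4.91 and -2.70. In lck-IRF4;p53+/- tumors it was -3.36 without their replicate 1 and -1.21 without their replicate 2.

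irf4a (ENSDARG00000006560.10, named IRF4 in the current table) had 121 and 21.8 CPM in the controls. It had 33.8 and 49.8 CPM in lck-IRF4 tumors and 15.5 and 11.0 CPM in lck-IRF4;p53+/- tumors. Its order thus differed from that of irf4b, since the lck-IRF4;p53+/- libraries were the lowest and the lck-IRF4 libraries lay between the controls. The log2 fold change was -0.77 (SE 0.74, edgeR adjusted p = 0.653) in lck-IRF4 tumors and -2.43 (SE 0.78, edgeR adjusted p = 0.149) in lck-IRF4;p53+/- tumors. In lck-IRF4;p53+/- tumors the adjusted p ranged from 0.00486 to 0.484 over its 11 other settings, and it was 0.0243 in DESeq2. Without lck-mCherry replicate 1 the log2 fold changes were 0.92 and -0.72, so the sign in lck-IRF4 tumors turned. irf4a and irf4b are copies of 1 ancestral gene, and how reads shared by both were counted is not stated.

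irf7 (ENSDARG00000045661.7, IRF7), which in mammals drives the bulk of type I interferon production, had 105 and 28.4 CPM in the controls. It had 13.4 and 12.4 CPM in lck-IRF4 tumors, and 51.3 and 26.4 CPM in lck-IRF4;p53+/- tumors. Both lck-IRF4 libraries lay below every other library, and the remaining groups overlapped. The log2 fold change was -2.37 (SE 0.69, edgeR adjusted p = 0.135) in lck-IRF4 tumors, and over 11 other settings its adjusted p ranged from 0.00473 to 0.426, with 0.0152 in DESeq2. That log2 fold change was -1.15 without lck-mCherry replicate 1 and -3.05 without lck-mCherry replicate 2. In lck-IRF4;p53+/- tumors the log2 fold change was -0.78 (SE 0.66, edgeR adjusted p = 0.557), and without lck-mCherry replicate 1 it turned to 0.45.

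Among the 8 tested family genes, the control libraries differed most in these 3. irf4b was 5.79-fold, irf4a 5.54-fold and irf7 3.70-fold higher in lck-mCherry replicate 1 than in replicate 2. Only 3.13%, 3.49% and 7.55% of all tested genes had a larger log2 ratio between these libraries (0.5 CPM added), whose median over all genes was 0.00. Ratios within the lck-IRF4 group were at most 1.53-fold in these genes, and within the lck-IRF4;p53+/- group they were 4.49-fold for irf4b, 1.94-fold for irf7 and 1.41-fold for irf4a. Their changes against the controls are therefore measured against a wide control spread.

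irf8 (ENSDARG00000056407.5, IRF8), which directs macrophage formation in zebrafish, had 21.2 and 52.0 CPM in the controls. It had 61.9 and 78.1 CPM in lck-IRF4 tumors and 43.9 and 82.3 CPM in lck-IRF4;p53+/- tumors. It was the tested family gene whose fitted change was above 0 in every setting against both tumor groups, although lck-IRF4;p53+/- replicate 1 lay between the controls. The log2 fold changes of 0.94 (SE 0.55) and 0.79 (SE 0.55) did not pass the test, with edgeR adjusted p-values of 0.425 and 0.476. They were 0.41 and 0.28 without lck-mCherry replicate 1, and 1.70 and 1.56 without lck-mCherry replicate 2. irf10 (ENSDARG00000027658.9) had 5.66 and 5.29 CPM in the controls. It had 4.62 and 3.20 CPM in lck-IRF4 tumors, and 3.30 and 7.94 CPM in lck-IRF4;p53+/- tumors. The lck-IRF4;p53+/- libraries lay on both sides of the controls, and the log2 fold changes were -0.48 (SE 0.75) and 0.04 (SE 0.74), with edgeR adjusted p-values of 0.80 and 0.985.

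irf3 (ENSDARG00000076251.6), the factor that starts the first wave of type I interferon in mammals, had 20 and 0 counts in the controls. It had 2 and 0 counts in lck-IRF4 tumors, and 6 and 4 counts in lck-IRF4;p53+/- tumors. All of its control reads came from lck-mCherry replicate 1. irf5 (ENSDARG00000045681.7, IRF5), which acts downstream of Toll-like receptors in mammalian myeloid cells, had 1 and 8 counts in the controls. It had 5 and 8 counts in lck-IRF4 tumors, and 2 and 5 counts in lck-IRF4;p53+/- tumors, so its groups overlapped. For irf3 both lck-IRF4;p53+/- libraries lay above both lck-IRF4 libraries, at these low counts. Neither gene entered the test, so differences between groups were not tested for them.

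**Figure D2:**
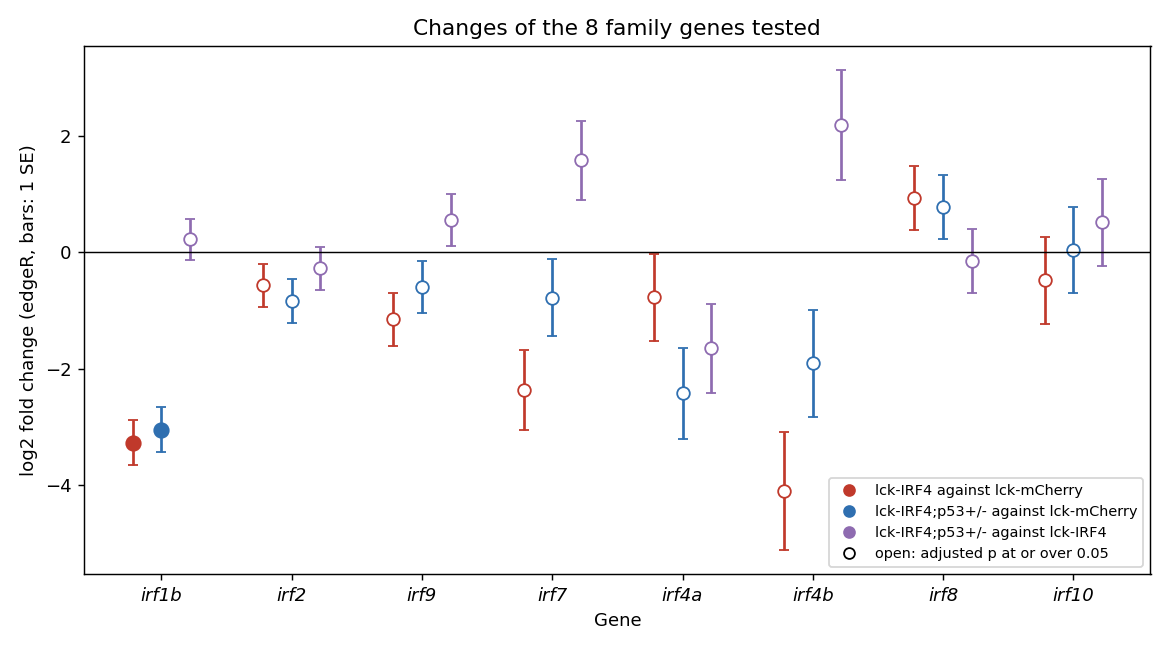
Log2 fold change of the 8 family genes tested, by edgeR, with bars of 1 SE on each side and 1 color for each of the 3 comparisons. Filled points had an adjusted p under 0.05, which was the case for irf1b in both comparisons with the controls, at -3.28 and -3.05. irf7 and irf4b had their lowest values in lck-IRF4 tumors and irf4a in lck-IRF4;p53+/- tumors.

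Both tumor groups, which differ in the p53 mutation, were compared with each other. Other differences between these tumors cannot be told apart from the mutation. No family gene was called by edgeR, against 0.00711% of all genes. An unadjusted p of edgeR under 0.05 was reached by 1 of the 8, irf7, against 6.83% of all genes. DESeq2 called none of the 8 either, against 1.94% of all genes in that test. Libraries of the tumor groups did not overlap for 4 of the 8 genes, 3 higher and 1 lower with the p53 mutation, against 38.9% of all genes. irf4b was 4.59-fold higher with the mutation (log2 difference 2.20, SE 0.95, edgeR adjusted p = 0.732). Over 11 other settings this adjusted p ranged from 0.0149, with every gene that had a count, to 1.00. Its log2 difference was 0.78 without lck-IRF4;p53+/- replicate 1 and 2.92 without lck-IRF4;p53+/- replicate 2. irf7 was 3.01-fold higher (log2 difference 1.59, SE 0.68, edgeR adjusted p = 0.729) and irf9 1.47-fold higher (log2 difference 0.56, SE 0.45). irf4a was 3.14-fold lower (log2 difference -1.65, SE 0.76, edgeR adjusted p = 0.791). irf4a and irf4b thus lay on opposite sides of 0, but neither difference passed the test.

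**Figure D3:**
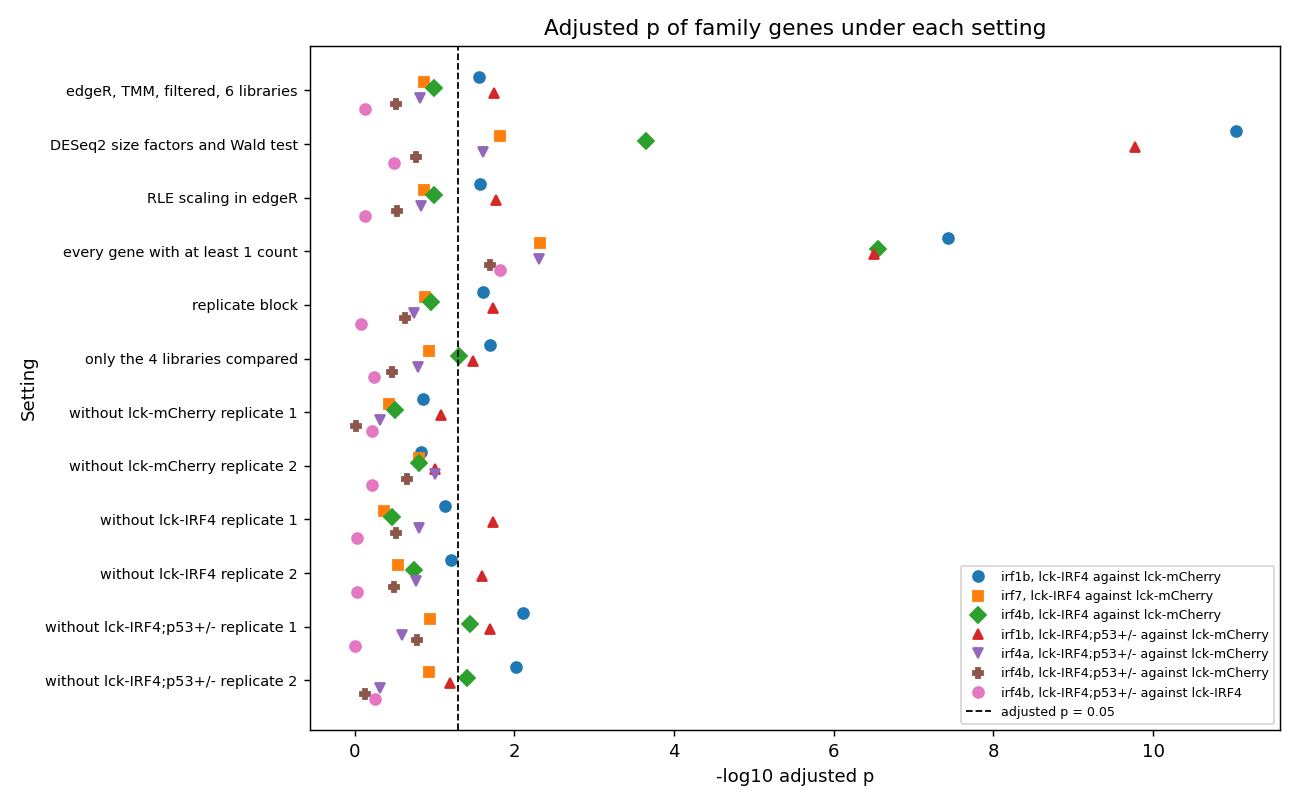
Adjusted p, as its negative log10, of each family gene and comparison that was called under at least 1 setting, with 1 line of points for each setting on the vertical axis. The dashed line marks an adjusted p of 0.05. irf1b lay to the right of it in most settings but to the left when a control library was left out. Against lck-IRF4 tumors it also lay to the left without either lck-IRF4 library, and against lck-IRF4;p53+/- tumors without their replicate 2. irf4b, irf7 and irf4a crossed the line mainly with DESeq2 or without the filter.

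DESeq2 called 3 of the 8 family genes in lck-IRF4 tumors, irf1b, irf4b and irf7, against 9.61% of all genes it tested. It called 2 in lck-IRF4;p53+/- tumors, irf1b and irf4a, against 10.3% of all genes. edgeR with every gene that had at least 1 count called the same 3 in the first comparison, and irf1b, irf4a and irf4b in the second. In that setting 1714 and 1713 of all 23101 genes were called. In the plot of adjusted p by setting, irf1b was called by each fit that kept all 6 libraries or the 4 compared, whichever scaling, filter or tool was used. irf2, irf8, irf9 and irf10 were called under none of the settings.

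The pathway around the family was examined through lists of interferons, their receptors, nucleic acid sensors and adaptors, kinases, STAT factors and interferon-stimulated genes. These held 75 symbols, of which 50 gene rows could be tested. In lck-IRF4 tumors edgeR called 1 row higher and 0 lower, and in lck-IRF4;p53+/- tumors 0, against 0.938% and 2.44% of all genes. At an unadjusted p under 0.05 stood 8 and 9 rows, or 16.0% and 18.0%, against 18.5% and 19.7% of all genes. DESeq2 called 2 rows in the first comparison, 1 higher and 1 lower, with tlr7 as the higher one. In the second it called 5, of which 2, tlr7 and tlr9, were higher and 3, stat4 and socs1a among them, were lower. Of all genes, DESeq2 called 9.61% and 10.3%. The row that edgeR called higher was tlr7 (ENSDARG00000068812.6), an endosomal receptor for single-stranded RNA whose signal leads to IRF7 in mammals. It had 0.323 and 0 CPM in the controls, 80.7 and 55.7 CPM in lck-IRF4 tumors, and 3.99 and 23.3 CPM in lck-IRF4;p53+/- tumors. All tumor libraries were above both controls, with an edgeR adjusted p of 0.0414 in lck-IRF4 tumors and 0.0514 in lck-IRF4;p53+/- tumors. The same symbol also stood on another row.

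Medians over the tested rows of the lists, on the log2 scale, were -0.37 for lck-IRF4 tumors and -0.71 for lck-IRF4;p53+/- tumors, beside 0.03 and 0.02 for all genes. The 23 interferon-stimulated genes tested, many of which act against viruses or in antigen presentation, had medians of 0.12 and -0.18, with 10 and 13 of the 23 below 0. The 11 rows of sensors and adaptors had medians of -0.65 and -1.24, with 7 and 8 below 0, and the 7 kinases medians of -0.57 and -1.09, with 6 below 0 in each comparison. Both rows of interferon ligands lay below 0 and both of their receptors above 0 in each comparison. Of the interferon genes themselves, ifnphi2 and ifnphi4 had 0 counts in each library, and ifnphi1 and ifnphi3 stayed under 3.6 CPM.

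**Figure D4:**
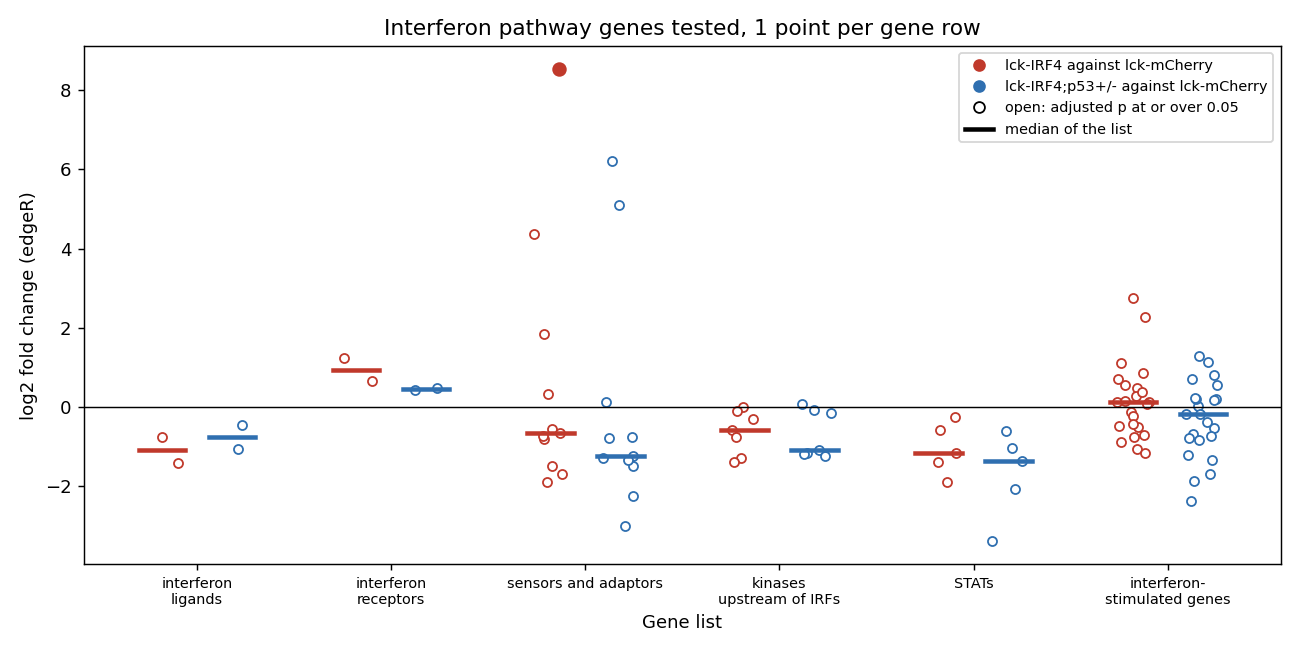
Log2 fold change of the 50 tested gene rows of the interferon pathway in lck-IRF4 tumors (red) and lck-IRF4;p53+/- tumors (blue), both against the same controls. Each point is a gene row, filled where the adjusted p was under 0.05, and each bar the median of a list. tlr7 in lck-IRF4 tumors is the filled point, and the interferon-stimulated genes lay around 0, with medians of 0.12 and -0.18.

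Some pathway genes shared the split between the control libraries that was seen for irf4a, irf4b and irf7. The adaptor traf3, which links sensors to the kinases of IRF3 and IRF7, had 628 CPM in lck-mCherry replicate 1 and 92.7 CPM in replicate 2. The kinase irak1, which acts upstream of IRF7 in mammals, had 29.3 and 1.59 CPM. In contrast, tbk1, the kinase of IRF3, was lower in replicate 1, at 672 and 914 CPM. These 3 genes were named after their values had been seen, and none of them was called.

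Some markers of cell types differed between the groups as well, while others overlapped. Among T cell markers, zap70 lay between 1281 and 2289 CPM in all libraries. For lck itself only the authors' means pooled over controls and tumors were at hand. These were 14130 normalized counts with lck-IRF4 tumors and 15343 with lck-IRF4;p53+/- tumors. They give no separate level of lck in controls or tumors. The coreceptor gene cd8b fell in both tumor groups, from 274 and 172 CPM in the controls to at most 13.9 CPM in a tumor library, as did irf1b, with edgeR adjusted p-values of 0.0341 and 0.0178. cd8a had 1409 and 923 CPM in the controls, 316 and 390 CPM in lck-IRF4 tumors and 179 and 62.2 CPM in lck-IRF4;p53+/- tumors. In the same order, cd4-1 had 39.6 and 14.1 CPM, 1.62 and 2.31 CPM, and 0.137 and 0.673 CPM. Both genes lay below both controls in all 4 tumor libraries but were called in lck-IRF4;p53+/- tumors alone. Of 8 T cell rows tested, 1 and 3 were called lower in the first and second comparison, against 0.938% and 2.44% of all genes. rag2, a subunit of the recombinase that assembles antigen receptor genes, lay the other way, at 306 and 358 CPM in the controls and between 611 and 1552 CPM in all 4 tumor libraries. The edgeR adjusted p-values of rag2 were 0.186 and 0.119. rag1, from the same list, did not share this direction, and its groups overlapped. It had 36.7 and 12.9 CPM in the controls, 8.24 and 33.4 CPM in lck-IRF4 tumors and 8.25 and 23.2 CPM in lck-IRF4;p53+/- tumors. The log2 fold changes of rag1 were -0.25 (SE 0.86) and -0.66 (SE 0.86). Without lck and themis, whose counts could not be solved, the list summed to 6363 and 4983 CPM in the controls, 4688 and 4473 CPM in lck-IRF4 tumors and 3674 and 4746 CPM in lck-IRF4;p53+/- tumors. The part of these markers in the values of irf1b was not tested.

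Macrophage markers, listed beside irf8, summed to between 551 and 1007 CPM in the controls, 687 and 844 CPM in lck-IRF4 tumors and 599 and 1018 CPM in lck-IRF4;p53+/- tumors. Most of the control sums was cd74a, at 521 and 951 CPM, which is also found in other antigen-presenting cells. It had 756 and 609 CPM in lck-IRF4 tumors and 308 and 355 CPM in lck-IRF4;p53+/- tumors. Alone of the 7 rows tested, cd74a lay below 0 in both comparisons, with log2 fold changes of -0.11 and -1.15, and was not called. Without it, a choice made after the values were seen, the list summed to 29.7 and 55.9 CPM in the controls, 87.8 and 78.1 CPM in lck-IRF4 tumors and 291 and 663 CPM in lck-IRF4;p53+/- tumors. Of 7 rows tested, 3, marco, c1qb and c1qc, were called higher in lck-IRF4;p53+/- tumors, against 2.44% of all genes. Their log2 fold changes there were 3.67, 3.52 and 3.86, and in lck-IRF4 tumors 0.58, 1.52 and 1.93. None was called in lck-IRF4 tumors, against 0.938% of all genes. mpeg1.1 had 6.14 and 2.29 CPM in the controls and 7.42 and 2.42 CPM in lck-IRF4;p53+/- tumors, a log2 fold change of 0.22 (SE 0.84). c1qa and csf1ra, at log2 fold changes of 3.69 and 1.53 in these tumors, were not called either. csf1rb was at 0 in every library, and mfap4 had at most 2 counts in any. B cell markers summed to 34.6 and 34.7 CPM in the controls, and to 201 and 146 CPM in lck-IRF4 tumors and 61.9 to 70.4 CPM in lck-IRF4;p53+/- tumors. Of 4 rows tested, 1, swap70a, was called higher in lck-IRF4 tumors, against 0.938% of all genes. In lck-IRF4;p53+/- tumors 2 of the 4, cd79a and cd79b, lay below 0, at log2 fold changes of -0.72 and -2.02, and 2 above 0. Most of the sums there was blnk, at 51.1 and 53.9 CPM. Granulocyte markers summed to between 29.9 and 35.6 CPM in the controls and between 96.0 and 242 CPM in the tumor libraries. Of 8 rows tested, 2, cpa5 and lyz, were called higher in lck-IRF4;p53+/- tumors, against 2.44% of all genes. Their log2 fold changes there were 5.08 and 6.37. In lck-IRF4 tumors they were 4.89 and 6.53, and neither was called. Erythroid markers summed to between 273 and 606 CPM in the controls and from 192 to 1765 CPM in the tumor libraries, and epithelial markers to between 44.5 and 51.8 CPM and from 48.0 to 430.1 CPM. Thymic epithelium markers summed to 4.04 and 8.81 CPM in the controls and from 12.3 to 63.5 CPM in the tumor libraries. Of their 4 rows, 2 were tested and 0 called. Most of the tumor sums was cxcl12a, at 36.7 and 9.78 CPM in lck-IRF4 tumors and 13.2 and 36.6 CPM in lck-IRF4;p53+/- tumors. foxn1, not tested, had at most 3 counts in a library. psmb11b, not tested, had 0.970 and 0.705 CPM in the controls and at most 0.356 CPM in a tumor library. The part of these cells in the values of irf8 was not tested.

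Finally, genes whose levels over the 6 libraries were most like those of the fish's own IRF4 genes were listed by Pearson's r of log2 CPM. For irf4a these were ssbp3a, a cofactor of LIM-domain transcription factors (r = 0.988), ptger4b, a prostaglandin E2 receptor gene (r = 0.985), and si:dkey-220k22.1 (r = 0.982). For irf4b they were chmp4bb, a subunit of the membrane-cutting ESCRT-III complex (r = 0.998), ube2w, a ubiquitin-conjugating enzyme gene (r = 0.993), and BX914211.1 (r = 0.993). The 6 points share 3 groups and the split between the controls, and 149 and 320 of 14072 genes had an r over 0.9 with irf4a and irf4b. Like irf4b, chmp4bb was highest in lck-mCherry replicate 1, at 276 CPM against 148 CPM in replicate 2, and lowest in lck-IRF4 tumors, at 71.6 and 78.4 CPM.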

How the data were processed

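Libraries were strand-specific and read as paired ends by a BGISeq500, per the labels. The submitters' processing notes name STAR 2.5.2a, featureCounts 1.6.1, DESeq2 1.12.4 and GRCz11. The authors deposited raw read counts by Ensembl transcript, 1 file a library, with no gene names. The strand setting and the treatment of reads shared by transcripts or gene copies are not given in the sources used here. The authors also deposited 2 DESeq2 tables, 1 for each tumor group against the control. The signal used from them was computed by the authors as the mean, over the 4 libraries compared, of counts divided by DESeq2 size factors, while the fold changes, errors, statistics and p-values in them were not.

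Each mean is a sum over 4 libraries of a whole count divided by 4 times the library's size factor, and was deposited with 15 significant digits. The 4 steps of a table were read from its lowest means. Whole counts per gene were then solved from 1 table, or from both, which share the controls. This gave 1 solution for 31774 of 31901 genes, of which 23101 had at least 1 count. The other 127 were left out, 123 for a mean over 12000 and 4 for several solutions. Control counts were the same from both tables in 9193 of 9193 low genes. Run on means built from known transcript counts, the solver was right for 58749 of 58749 features solved. Features with 0 counts in every library, which need no solving, were not left out of that total. irf1b, with authors' means of 10545 and 11078, lies just under the limit, and its solution stayed the only 1 at 4 times the tolerance but not at 8 times, where 6 were found. Libraries were named by the order, of 720, in which most genes had a transcript within 0.05 (log2) in all 6 labelled count tables (595 of 6289 genes, against 28 in the next best order).

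Counts per gene were tested by quasi-likelihood in edgeR 4.0.16 (R 4.3.3), with TMM scaling, filterByExpr, 1 fit over all 6 libraries and Benjamini-Hochberg adjustment over 14073 genes. CPM is per 1000000 solved counts, without the 127 most abundant or unsolved genes. The test had been planned on counts per gene from paired transcripts. With no pairing at hand, the plan was a test of transcripts and a description of genes without a test. The test on solved counts was adopted after the data were seen. The planned test called 129, 292 and 1 of 14603 transcripts, in the order lck-IRF4 against control, lck-IRF4;p53+/- against control and between the tumors, and none could be tied to a family gene.

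In simulated data of the first comparison with 13374 genes tested, the edgeR procedure found 0 of 67 genes with a log2 change of 1, 3 of 67 with a change of 2 and 37 of 66 with a change of 4. It made 3 false calls. The smallest two-sided p of an exact permutation test is 0.333 with 2 libraries in each group, so no such test was made. DESeq2 1.42.0 served as an alternative.

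Family members and gene lists were chosen with earlier results of these data known. All 10 members are named, with each pathway gene called by edgeR against the control and the 3 genes most like irf4a and irf4b by Pearson's r (prior count 2). Any other gene was chosen after its values were seen. Gene names came from the tables and from a table of current Ensembl names. No sequence or genome position was used here. The values of 1 gene of the pathway lists, and the summary of the list that holds it, are not reported here.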

Additional observations from a re-analysis of the deposited data

Results flagged for a closer look

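A second row of tlr7 (ENSDARG00000075685.4) lay on opposite sides of the controls in the tumor groups, at low counts. It had 0.808 and 0.529 CPM in the controls, 3.12 and 1.78 CPM in lck-IRF4 tumors, and 0 and 0.135 CPM in lck-IRF4;p53+/- tumors. Both libraries of the first tumor group were above, and both of the second below, the control libraries. Counts were 5 and 3 in the controls, 25 and 10 in lck-IRF4 tumors and 0 and 1 in lck-IRF4;p53+/- tumors, and neither difference from the controls passed the test, with edgeR adjusted p-values of 0.427 and 0.289. The log2 difference between the tumor groups was -4.84, with an edgeR adjusted p of 0.403, so it did not pass the test. This row and the more abundant tlr7 row named above carry the same symbol, and how reads shared by them were counted is not stated.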

How the results depend on the processing

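Under 11 other settings, 297 values were recomputed for the 9 tested rows with a family symbol, here with the row now named TXNDC15 included. Of these, 279 kept their side of the threshold, 11 became called, 7 lost their call and 0 called values changed sign. A further count, of values that were not called and took the other sign, was 17. In lck-IRF4 tumors, where 1 family gene and 132 genes in all were called, DESeq2 called 3 and 1402, every gene with a count gave 3 and 1714, and the 4 libraries compared alone gave 2 and 414. In lck-IRF4;p53+/- tumors, with 1 and 343 calls, DESeq2 gave 2 and 1502 and every gene with a count 3 and 1713. Between the tumor groups, with 0 and 1 calls, DESeq2 called 283 genes, none of the family, every gene with a count gave 1 and 418, and the 4 libraries compared alone gave 0 genes. Leaving out 1 library in turn gave 0 to 2 family genes and 0 to 405 genes in lck-IRF4 tumors, 0 to 1 and 0 to 393 in lck-IRF4;p53+/- tumors, and 0 and 0 to 2 between the tumor groups. Where a group was left with 1 library, its spread was taken from the other groups. The cause of these differences was not tested.

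The labels do not say that replicate numbers pair samples, and the deviations of same-numbered libraries correlated with r of 0.06, 0.22 and -0.03 for the 3 pairs of groups. With the replicate number as a block, edgeR called 177, 319 and 0 genes and kept irf1b, at adjusted p-values of 0.0244 and 0.0186. With CPM by library total, 1 family gene rather than 3 had all 4 tumor libraries below both controls, whereas size factors read from the authors' means, chosen after seeing the data, gave 3. The alternative of using the most abundant transcript of each gene was not run, since transcripts could not be paired with genes. A count of 3 stood at 0.374 to 0.534 CPM, which limits irf3 and irf5.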

Other observations

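Among the antigen processing genes of the list of interferon-stimulated genes, 3 that were chosen for their pattern after their values were seen differed widely between the lck-IRF4 libraries. psmb8a, a subunit of the immunoproteasome, had 192 and 248 CPM in the controls, 0 and 947 CPM in lck-IRF4 tumors, and 414 and 362 CPM in lck-IRF4;p53+/- tumors. psmb9a had 147 and 167 CPM in the controls, 0.499 and 464 CPM in lck-IRF4 tumors, and 139 and 324 CPM in lck-IRF4;p53+/- tumors. The peptide transporter gene tap2a had 209 and 61.7 CPM in the controls, 3.99 and 440 CPM in lck-IRF4 tumors, and 106 and 208 CPM in lck-IRF4;p53+/- tumors. These 3 genes were at or near 0 in lck-IRF4 replicate 1 and highest in lck-IRF4 replicate 2, and none was called. Others of the list lacked this pattern. tap1 had 12.1 and 6.40 CPM in lck-IRF4 tumors, psme1 393 and 453 CPM and psme2 697 and 809 CPM. The beta-2-microglobulin gene b2m lay between 323 and 776 CPM in all 6 libraries.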
